A study of Rattus norvegicus with 74 samples.

Results

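The left ventricle, the chamber that pumps blood into the aorta, was compared between treadmill-trained and sedentary rats across all genes. The comparison uses the 14 left ventricle libraries of a series of 74, 7 from trained rats (LV_ExT) and 7 from sedentary control rats (LV_Sed), each library from a different rat. All were male wild-type rats of the Wistar Kyoto strain, 9 weeks old when tissue was taken, and all drank water with 8% deuterium oxide. Trained rats began treadmill running at an age of 5 weeks and ran on 5 days a week for 4 weeks. Sessions lengthened from 20 to 60 min at 15 m/min in the first week and then stayed at 60 min and 20 m/min. Control rats stood on a treadmill that was switched off for as long as the others ran. Hearts were taken 24 h after the last session, so any brief response to a single run is outside what these samples can show. The question is which genes of the ventricle differ in level after 4 weeks of running.

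Endurance training is a repeated volume load on the heart, and the growth that follows it differs in its known biology from growth under high pressure. Under pressure or injury, the ventricle is known to turn on a fetal programme that includes the natriuretic peptides Nppa and Nppb, skeletal actin Acta1 and the slow myosin Myh7. Exercise is better known for signalling through Igf1 and Akt1, for the factors Cebpb and Cited4, and for greater use of fatty acids. These programmes, the contractile apparatus, matrix, vessels, mitochondria, clock and stress proteins make up the gene lists described below.

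Total counts ranged from 54645657 to 75758777 per library, and the smallest level taken as detectable, 3 counts, equals 0.0396 to 0.0549 CPM (counts scaled to a common library size, with TMM factors). The libraries carry their tissue label: the summed markers of ventricular cardiomyocytes reached 33900 to 46400 CPM, whereas markers of skeletal muscle summed to at most 3.44 CPM and Myod1 was at 0 in every library. Some libraries stood apart. LV_Sed rat 20 held liver RNA, with albumin (Alb) at 1150 CPM and a sum of 1810 CPM over 12 liver genes. The next sums were 61.0 CPM in LV_Sed rat 16 and 43.0 CPM in LV_ExT rat 17, and all others were at most 8.24 CPM. LV_ExT rat 26 and LV_Sed rat 19 held atrial RNA, with the atrial light chain Myl7 at 660 and 198 CPM. Results that rest on rats 19, 20 and 26 are given with and without them where they are named. The liver genes were listed after their levels in rat 20 had been seen, and the labels mention no liver or atrial tissue in these samples. In RNA from whole tissue, fewer cells of a type and less RNA per cell cannot be told apart.

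Training was not accompanied by a change in any single gene that passed the test. Of 14488 genes tested with edgeR's quasi-likelihood test, 0 (0%) had an adjusted p under 0.05, and the smallest adjusted p was 0.804. DESeq2 and limma-voom with quality weights also called 0 genes, with smallest adjusted p-values of 0.0571 and 0.632. At an unadjusted p under 0.05 edgeR gave 855 genes (5.9% of those tested), 494 higher (3.41%) and 361 lower (2.49%) in trained rats. Across every gene tested the middle log2 fold change was 7.2e-05, and 50% of genes lay above 0.

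The absence of calls came with narrow intervals for most expressed genes. For 11811 genes (81.5%) the 95% interval of the fold change lay inside 1.5-fold in both directions, and for 13618 (94.0%) inside 2-fold. Among 6110 genes between 10 and 100 CPM the share inside 1.5-fold was 98.0%, and among 2322 genes under 1 CPM it was 17.6%. Changes of 1.5-fold or more were thus outside the interval for most genes of moderate level, and inside it for most rare transcripts. Of the 14 rats, rats 14 and 16, 1 per group, have numbers from the earlier range of the series. With the other 12 rats alone, edgeR still called 0 genes (smallest adjusted p 0.183), but 1715 genes (11.8%) had an unadjusted p under 0.05.

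**Figure D1:**
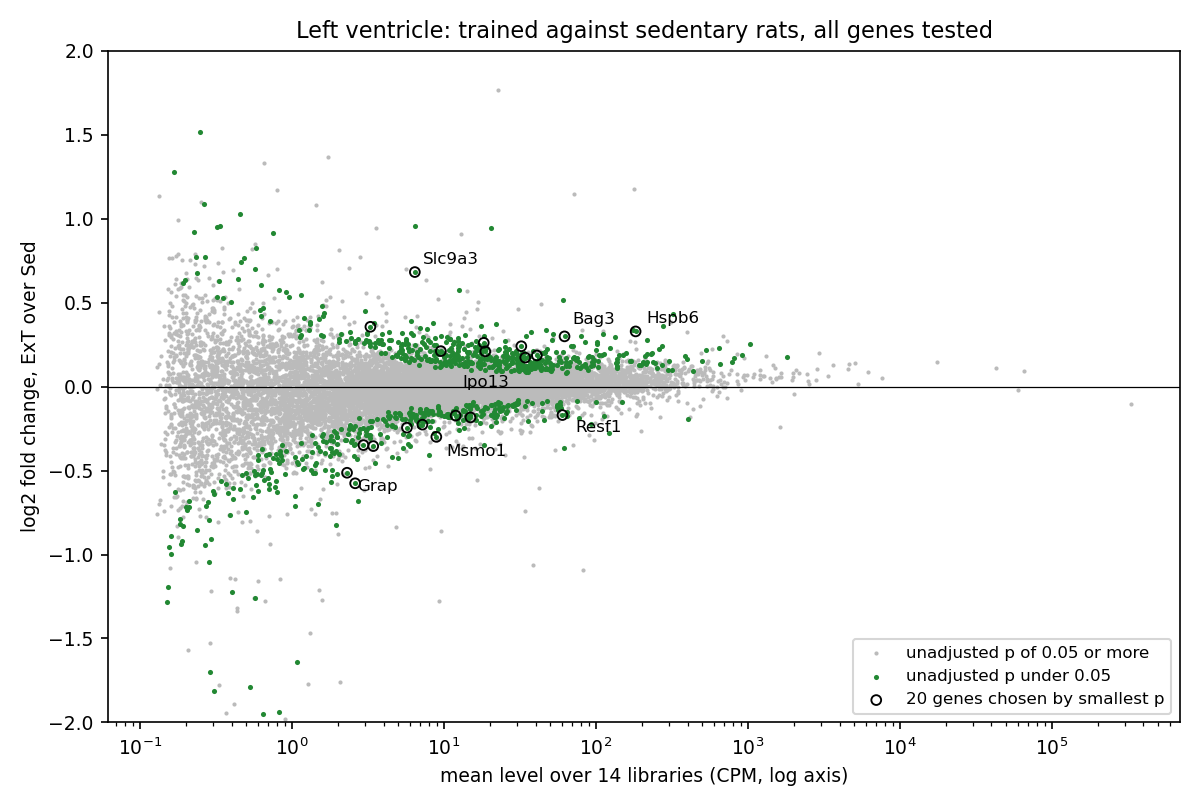
Log2 fold change of trained over sedentary rats against mean level in CPM (log axis) for 14488 genes. Green points have an unadjusted p under 0.05, circles mark the 20 genes chosen by smallest p, and 17 genes beyond 2 log2 units are outside the plot. The spread narrows as the level rises, and no gene passes the adjusted test.

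The genes with the smallest p differed by small amounts that were even across rats. Since no gene was called, the 10 with the smallest p in each direction are described as the leading edge of a comparison without calls, each with an adjusted p of 0.804. In all 10 of the higher genes, every trained rat lay above the median of the sedentary rats, and in all 10 of the lower genes every trained rat lay below it. Because the genes were picked for small p, that evenness is a description of the choice and not support for it.

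Ipo13 (ENSRNOG00000019758), an importin that carries proteins across the nuclear envelope, had the smallest p of the named genes. Its level was 30.9, 32.0 and 33.6 CPM (lowest, median, highest) in sedentary rats and 34.1, 36.2 and 38.5 CPM in trained rats. The groups did not overlap, and the log2 fold change was 0.17 (SE 0.038, 95% interval 0.093 to 0.25), a fold of 1.13. Hira, a histone chaperone that deposits the variant H3.3, also did not overlap between groups: 8.09, 8.81 and 9.26 CPM in sedentary rats and 9.41, 9.91 and 11.3 CPM in trained rats. Over all genes, 3 (0.0207%) had every trained rat above every sedentary rat and 4 (0.0276%) had every trained rat below. The third of the higher genes was Mettl17, a protein of mitochondrial ribosome assembly. The named genes among the 4 lower ones were Pspc1, a paraspeckle protein, and Btaf1, a remover of TATA-binding protein from DNA. Mettl17 and Btaf1 were named after their values were seen.

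Slc9a3, a sodium-proton exchanger best known from kidney and gut, had the largest fold among the 10 higher genes. It reached 3.91, 4.70 and 6.43 CPM in sedentary and 5.81, 7.75 and 10.2 CPM in trained rats, a log2 fold change of 0.68 (SE 0.15) or a fold of 1.60. The ranges of the groups overlapped at their ends. Its log2 fold change was 0.51 without rats 19, 20 and 26. Tsc2, the brake on the growth kinase mTOR, ran from 33.8 to 40.7 CPM in sedentary rats (median 38.2) and from 40.5 to 47.6 CPM in trained rats (median 42.3), a fold of 1.14. The trained rats thus began where the sedentary rats ended, and the log2 fold change was 0.19 (SE 0.047).

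The other higher genes had no shared role. They were Slc38a7, a lysosomal glutamine transporter (log2 fold change 0.36, SE 0.092), Znf768, a zinc finger protein (0.26, SE 0.064), Ube2o, a ubiquitin-conjugating enzyme (0.24, SE 0.065), and Hs6st1, a sulfotransferase of heparan sulfate (0.21, SE 0.056). The small heat shock protein gene Hspb6 and its chaperone partner Bag3 complete the 10 and are described with the chaperones.

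Msmo1 (ENSRNOG00000032297), an enzyme of cholesterol synthesis, led the genes that were lower in trained rats. Its level was 8.38, 10.3 and 10.7 CPM in sedentary and 7.17, 8.08 and 9.13 CPM in trained rats, a log2 fold change of -0.30 (SE 0.072) or a fold of 0.813. The groups overlapped only through the lower sedentary rats and the highest trained rats. Resf1, a regulator of retroelement silencing, ran from 60.5 to 66.6 CPM in sedentary and from 53.6 to 60.6 CPM in trained rats, and its log2 fold change was -0.17 (SE 0.042).

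Among the rest of the 10, Ercc8 and Stk3 act in DNA repair and in Hippo signalling, and Rbak and Pspc1 act in the nucleus. Their log2 fold changes were -0.23 for Ercc8, -0.18 for Stk3, -0.24 for Rbak and -0.17 for Pspc1. Genes of low level had larger and less certain values: -0.51 (SE 0.14) for Grap, an adaptor of receptor signalling, -0.35 for Lpar3, a lysophosphatidic acid receptor, and -0.35 for Dnajc22, a DnaJ family member. SNORA73 (here ENSRNOG00000052439), with -0.58 (SE 0.16), is the symbol of a small nucleolar RNA that has several near-identical copies, so its count is uncertain. The other tested genes with this symbol had -0.39, -0.39 and -0.26, all with intervals that included 0. SNORA73 belongs to a class, the small nucleolar RNAs, that is described with the gene classes.

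**Figure D2:**
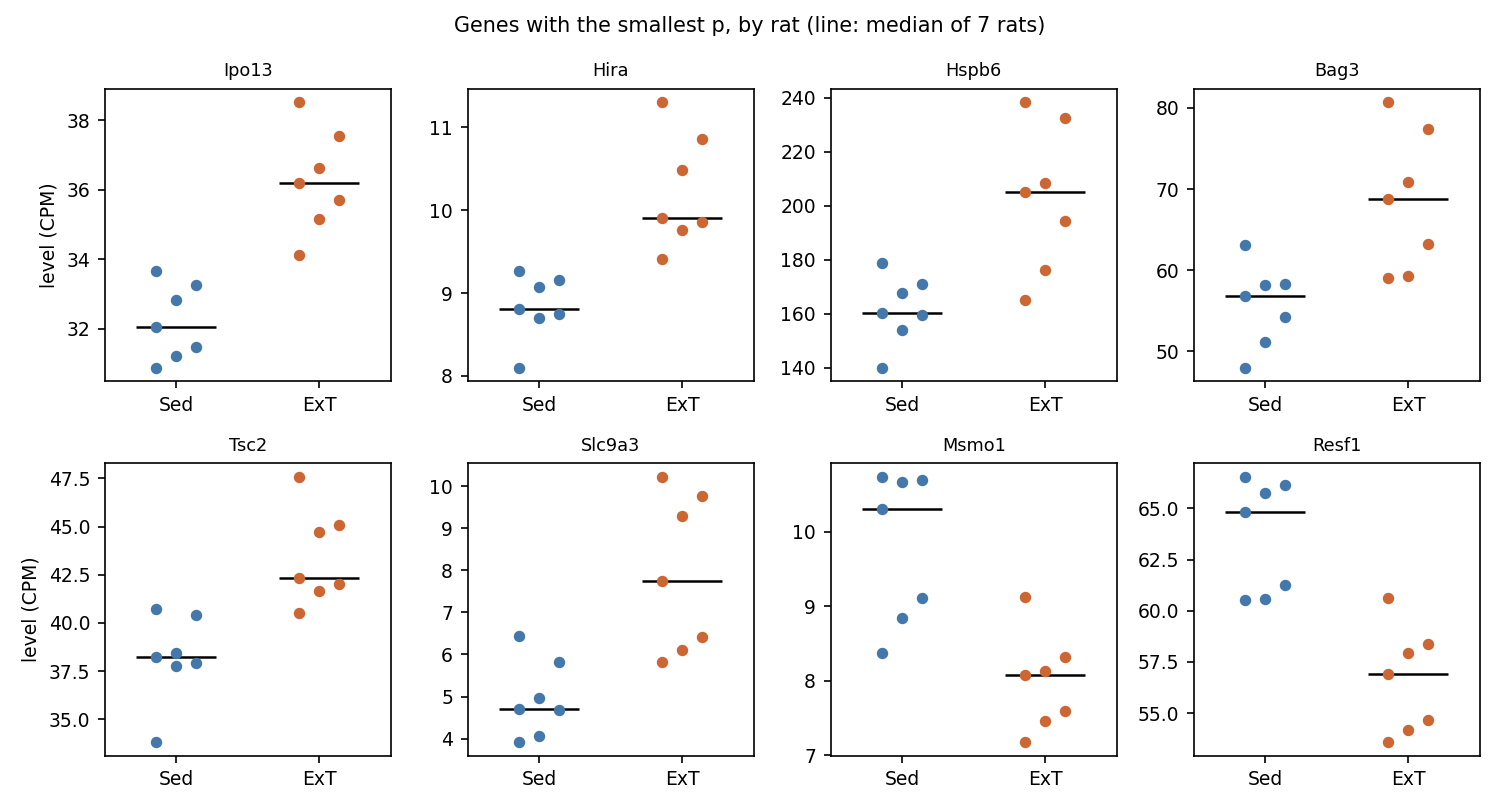
Level in CPM of 8 of the genes with the smallest p, 1 point per rat, 7 sedentary (Sed) and 7 trained (ExT), with the median as a line. The vertical axes do not start at 0. Ipo13 and Hira have no overlap between the groups, and Hspb6, Bag3, Tsc2, Slc9a3, Msmo1 and Resf1 overlap at the ends.

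Chaperones of the muscle fibre were among the leading genes. Heat shock proteins such as Hspb6 (also called Hsp20) bind damaged or unfolded proteins. Bag3, a partner of small heat shock proteins, is known to guard the Z-disc, the anchor of the contractile filaments. Of 42 heat shock and chaperone genes tested, 0 were called. Higher at an unadjusted p under 0.05 were 6 and lower were 0, where 3.41% of all genes were higher and 2.49% lower. The median log2 fold change over the list was 0.033, with 27 members above 0.

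Hspb6 (ENSRNOG00000020922) had 140, 160 and 179 CPM in sedentary and 165, 205 and 238 CPM in trained rats. Its log2 fold change was 0.33 (SE 0.077, 95% interval 0.17 to 0.49), and 5 trained rats lay above the highest sedentary rat. Bag3 (ENSRNOG00000020298) had 47.9, 56.8 and 63.1 CPM in sedentary and 59.1, 68.8 and 80.7 CPM in trained rats, a log2 fold change of 0.30 (SE 0.076). The groups overlapped by 2 trained rats, which lay below the highest sedentary rat.

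Genes of this list that share heat shock control are known to carry heat shock elements, inverted repeats of the letters GAA. The 250 bases before the start of Hspb6 and of Bag3 are shown because these genes had the smallest p of the list. Capitals mark each run of 8 bases that matches TTCNNGAA or GAANNTTC, where N is any base. Each pattern reads the same on both strands, and neither overlaps the other in these windows. The sequences are from RefSeq, build GRCr8, plus strand, at chr1:94934122-94934371 for Hspb6 and chr1:192533210-192533459 for Bag3.
Hspb6: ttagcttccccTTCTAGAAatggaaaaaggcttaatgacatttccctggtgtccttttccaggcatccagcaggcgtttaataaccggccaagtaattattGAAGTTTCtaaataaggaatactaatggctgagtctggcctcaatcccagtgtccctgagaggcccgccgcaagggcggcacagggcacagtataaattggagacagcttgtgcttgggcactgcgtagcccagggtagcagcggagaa
Bag3: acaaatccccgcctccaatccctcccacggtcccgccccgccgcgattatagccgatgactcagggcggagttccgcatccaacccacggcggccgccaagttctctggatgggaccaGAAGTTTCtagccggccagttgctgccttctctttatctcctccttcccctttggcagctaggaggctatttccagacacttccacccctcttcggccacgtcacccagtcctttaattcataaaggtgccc
A match was present in the same window of 14 of the 35 list genes with an entry (40.0%), and of 1100 of 10351 tested genes with an entry (10.6%). Of the genes described next, Hspb7 and Hspa4l had no match in that window, and Hspa8 had 4, in part overlapping. A match describes the letters and does not show that a factor binds.

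The other chaperones at an unadjusted p under 0.05 were Hspb7, a small heat shock protein of heart and muscle (log2 fold change 0.28, SE 0.10), Dnajb4 (0.23, SE 0.090), Hspa4l (0.15, SE 0.058) and Hspa8, the constant form of the 70-kilodalton family (0.17, SE 0.073). They and all genes named below as having an unadjusted p under 0.05 were named after their values were seen. The list was not uniform. Cryab, the abundant partner of Hspb6, had 896 to 1180 CPM in sedentary and 832 to 1258 CPM in trained rats, and its log2 fold change of 0.057 had an interval from -0.13 to 0.24. Hsp90ab1 (0.035) and Hspb1 (-0.062) likewise had intervals that included 0.

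Genes of cardiac load and the fetal programme lay mostly above 0, with wide intervals for the natriuretic peptides. Of 21 tested, 0 were called, 15 lay above 0, and the median log2 fold change was 0.082, between 0.025 and 0.12 under the other settings. Nppa, which encodes atrial natriuretic peptide, ran from 18.7 to 322 CPM in sedentary rats (median 90.1) and from 33.4 to 994 CPM in trained rats (median 65.9). The medians and the fold thus point opposite ways: the log2 fold change was 1.18 (SE 0.91, 95% interval -0.80 to 3.16), 0.16 without LV_ExT rat 26, 0.73 without rats 19 and 26, and 0.88 without rats 19, 20 and 26. Rats 26 and 19 were also highest for the atrial gene Myl7, and the part of atrial RNA in the Nppa values was not tested. LV_ExT rat 18 had 456 CPM of Nppa with only 5.81 CPM of Myl7.

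Nppb, the ventricular natriuretic peptide, ran from 30.8 to 132 CPM in sedentary and from 31.2 to 185 CPM in trained rats, and the ranges overlapped almost fully. Its log2 fold change of 0.34 had an interval from -0.63 to 1.30. The myosin heavy chains, which set the speed of contraction, were close between groups. Myh6, the fast form, had 14466, 15945 and 19413 CPM in sedentary and 15445, 18624 and 22250 CPM in trained rats, a log2 fold change of 0.15 (interval -0.029 to 0.33). Myh7, the slow form, had medians of 3048 CPM in sedentary and 3049 CPM in trained rats and a log2 fold change of 0.20 (interval -0.21 to 0.60). Ankrd1, a stretch-sensed titin partner, had 0.046 (interval -0.23 to 0.32), with 1 setting of the processing giving a value below 0. Acta1 had 0.30 (interval -0.082 to 0.68).

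Members of the load list at an unadjusted p under 0.05 were Xirp2 and Xirp1, actin-binding proteins of the intercalated disc, and Agt, the precursor of angiotensin. Xirp2 had 492, 593 and 718 CPM in sedentary and 601, 685 and 838 CPM in trained rats, and its log2 fold change was 0.23 (SE 0.082). Xirp1 had a log2 fold change of 0.14 (SE 0.067). Agt had -2.71, but it was 10.4 CPM in LV_Sed rat 20, the library with liver RNA, and at most 0.678 CPM in the other sedentary rats. Without that rat its log2 fold change was -0.55.

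**Figure D3:**
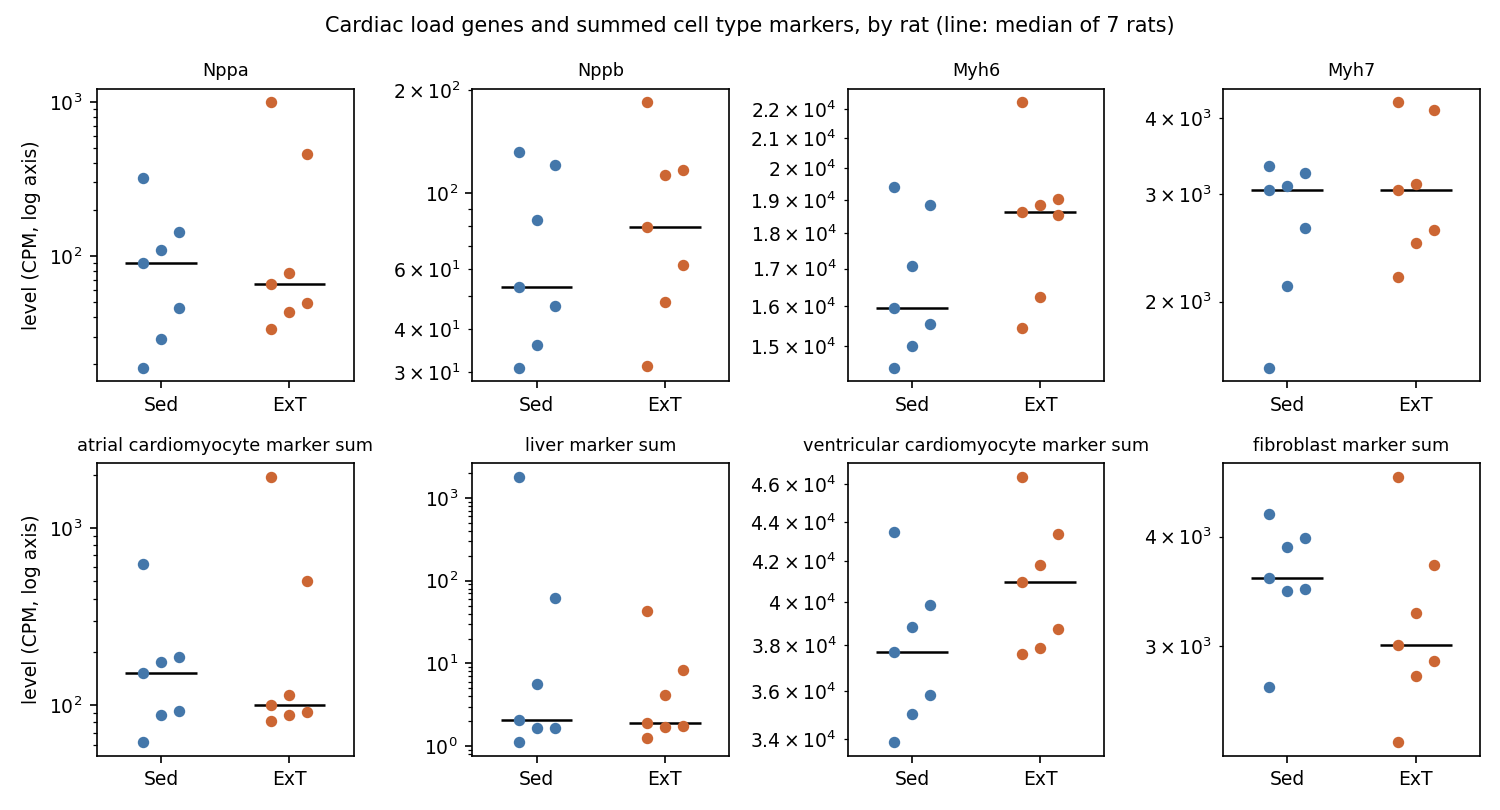
Level in CPM on log axes, 1 point per rat with the median as a line, of 4 cardiac load genes (top) and of summed markers of 4 cell types (bottom). Nppa, itself a part of the atrial sum, is highest in trained rat 26 (994 CPM), as is that sum (1950 CPM). The liver sum is highest in sedentary rat 20 (1810 CPM).

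Most genes of the contractile apparatus lay slightly above the sedentary level. Of 32 sarcomere and Z-disc genes tested, 0 were called, 30 lay above 0 and the median log2 fold change was 0.10, against 7.2e-05 over all genes. At an unadjusted p under 0.05, 5 were higher and 0 lower, where 3.41% of all genes were higher and 2.49% lower. The median was between 0.083 and 0.15 under all 26 other settings tried. It was 0.15 in the 12 rats numbered 17 to 32. There, 14 of the 32 had an unadjusted p under 0.05, as did 11.8% of all genes.

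Tcap, the titin cap of the Z-disc, had 205, 227 and 295 CPM in sedentary and 218, 332 and 367 CPM in trained rats. The groups overlapped, and the log2 fold change was 0.36 (SE 0.13, interval 0.091 to 0.63). Actn2, the actin crosslinker of the Z-disc, had 804, 964 and 1029 CPM against 952, 1155 and 1335 CPM, a log2 fold change of 0.25 (SE 0.080). Tmod1, which caps actin filaments, Mybpc3, myosin-binding protein C, and Myom1 of the M-band had log2 fold changes of 0.19, 0.17 and 0.15. Titin (Ttn) had 57835 to 71390 CPM in sedentary and 64469 to 75039 CPM in trained rats, and 0.092 (interval -0.037 to 0.22). The ventricular light chain Myl2 had 0.017 (interval -0.16 to 0.20), with a value below 0 in 3 other settings.

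The highest value of the sarcomere list, 1.76, belonged to the atrial light chain Myl4, which was 237 CPM in LV_ExT rat 26. Its value was -3.08 without that rat and 0.023 without rats 19 and 26. The summed ventricular cardiomyocyte markers, which share members with this list, had medians of 37700 CPM in sedentary and 41000 CPM in trained rats. Their ranges were 33900 to 43500 CPM and 37600 to 46400 CPM. LV_Sed rat 20 had the lowest sum. Whether the share of cardiomyocyte RNA accounts for the values of the list was not tested.

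Calcium handling and excitability genes differed by list, with most ion channel genes slightly above 0 and adrenergic genes on both sides of it. Calcium handling genes move calcium in and out of the sarcoplasmic reticulum in each beat: of 25 tested 0 were called, 17 lay above 0, and the median was 0.028. Atp2a2, the calcium pump SERCA2, had 6869, 7490 and 8100 CPM in sedentary and 6939, 7847 and 8508 CPM in trained rats. Its log2 fold change of 0.051 had an interval from -0.074 to 0.18. Ryr2, the release channel, had 0.13 (interval -0.027 to 0.29), and Casq2, the calcium store protein, had 0.13 at an unadjusted p of 0.0488. The list's highest value, 1.37, was that of sarcolipin (Sln), an atrial gene at 16.4 CPM in LV_ExT rat 26. Its value was -2.50 without that rat and -0.87 without rats 19 and 26.

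Of 33 ion channel and gap junction genes, 0 were called, 27 lay above 0, and the median was 0.067. Hcn2, a pacemaker channel, was the member at an unadjusted p under 0.05, with 46.4 CPM at the median in sedentary and 56.6 CPM in trained rats (log2 fold change 0.28, SE 0.10). The potassium channel subunit Kcnip2 had 0.12, with an interval from -0.023 to 0.26. Of 35 adrenergic and muscarinic genes, 0 were called and the median was 0.0028. Below it lay the phosphodiesterase Pde1c (-0.39, SE 0.14) and the inhibitory G protein subunit Gnai3 (-0.12, SE 0.046), both at an unadjusted p under 0.05. The abundant members Akap6, Prkar1a and Gnas had 0.11, 0.030 and 0.081.

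Growth signalling genes showed small values on both sides of 0. Of 41 genes of Igf1, neuregulin and PI3K signalling, 0 were called, 23 lay above 0 and the median was 0.023. An unadjusted p under 0.05 was reached by 4 higher genes and 1 lower gene, where 3.41% of all genes were higher and 2.49% lower. The higher ones were Mtor, the kinase that drives protein synthesis (0.11, SE 0.044), Rptor, a subunit of its complex (0.15, SE 0.063), Tsc2, its inhibitor (0.19), and Foxo4, a transcription factor restrained by Akt (0.27, SE 0.078). The lower one was the neuregulin receptor Erbb3 (-0.41, SE 0.17).

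Igf1 had 23.8, 35.0 and 47.6 CPM in sedentary and 23.9, 27.7 and 41.8 CPM in trained rats, with overlapping ranges and -0.17 on the log2 scale (interval -0.56 to 0.22). Akt1 had 0.11 (interval -0.071 to 0.28), and the receptor Igf2r had 0.022. Igfbp5, a binding protein of Igf1, had 0.029 with an interval from -0.31 to 0.37. The exercise-linked factors Cebpb and Cited4 had -0.075 (interval -0.43 to 0.29) and 0.029 (interval -0.14 to 0.20). Each of these 2 and Igfbp5 changed sign in at least 1 other setting.

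Of 27 genes of pathological hypertrophy signalling, 0 were called, 19 lay above 0 and the median was 0.048. Nfatc2 and Mef2d, transcription factors downstream of calcineurin and calcium kinases, were at an unadjusted p under 0.05 with log2 fold changes of 0.28 (SE 0.11) and 0.15 (SE 0.065). The calcineurin regulators Rcan2 and Rcan1 had 0.13 and -0.12, and Mef2a had -0.078, all with intervals that included 0. Thyroid hormone handling genes, 9 tested with 0 called, had a median of 0.074, with 0.044 for Klf9 and -0.090 for Thra, the main receptor of the heart.

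Genes of fuel use lay mostly above 0 by small amounts. LV_Sed rat 20, the library with liver RNA, had the lowest average level among all 14 rats of the fatty acid, glucose, TCA and ketone lists described here. With any 1 rat left out, the medians of these lists were at least 0.0472, 0.0595, 0.0369 and 0.0391. The part of rat 20 in the single genes was not tested. The heart burns mainly fatty acids, which are stored as lipid droplets, carried into mitochondria and shortened there. Of 48 fatty acid genes tested, 0 were called, 35 lay above 0 and the median was 0.063. There were 7 higher and 1 lower at an unadjusted p under 0.05, where 3.41% of all genes were higher and 2.49% lower.

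Acadl, the dehydrogenase that begins the breakdown of long chains, had 130, 163 and 182 CPM in sedentary and 142, 198 and 244 CPM in trained rats. The groups overlapped, and its log2 fold change was 0.34 (SE 0.12). Dgat2 and Dgat1, which make triglyceride, had 0.28 (SE 0.097) and 0.14, and Pnpla2, which breaks it down, had 0.17. The droplet coat proteins Plin4 and Plin5 had 0.22 and 0.15, the carnitine carrier Slc25a20 had 0.15, and the ligase Acsl3 had -0.19. The abundant members were closer to 0: Lpl, which frees fatty acids from lipoproteins, had 0.078, Fabp3, the carrier inside the cell, had 0.045, and Hadhb had 0.057. Fabp3 had a value below 0 in 1 other setting.

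Of 45 glucose and glycogen genes, 0 were called, 38 lay above 0 and the median was 0.081. At an unadjusted p under 0.05 were 5 genes, all higher, where 3.41% of all genes were higher. Among them, Pygm, which breaks down glycogen, had a log2 fold change of 0.15 (SE 0.070). Pfkfb3, an activator of glycolysis, had 0.25, Pdk2, which restrains pyruvate use, had 0.15, and Ldhb, the heart form of lactate dehydrogenase, had 0.19. Ldhb ran from 718 to 1028 CPM in sedentary and from 747 to 1111 CPM in trained rats, so most of the ranges overlapped. Gapdh had 0.13, Pdha1 0.045 and the insulin-sensitive transporter Slc2a4 0.14, with intervals that included 0.

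Of 26 genes of the TCA cycle and high-energy phosphate, 0 were called and 25 lay above 0, with a median of 0.068. The median stayed between 0.037 and 0.11 under the other settings. The members at an unadjusted p under 0.05 belong to the cycle itself: Ogdh (0.43, SE 0.16), Dlst (0.18, SE 0.071) and Idh3a (0.14, SE 0.057). Ogdh had 202, 285 and 330 CPM in sedentary and 266, 323 and 509 CPM in trained rats, and the groups overlapped. Myoglobin (Mb), the creatine kinase Ckmt2 and the nucleotide carrier Slc25a4 had 0.088, 0.078 and 0.035. Of 25 genes for ketones, lactate and branched-chain amino acids, 0 were called, 22 lay above 0 and the median was 0.066, with Got1 (0.20) at an unadjusted p under 0.05. Oxct1, the entry enzyme of ketone use, had 0.098 (interval -0.038 to 0.23), Got2 had 0.037 and the transporter partner Bsg had 0.063.

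Mitochondrial genes gave a mixed picture. Regulators of mitochondrial biogenesis, 30 tested and 0 called, had 22 members above 0 and a median of 0.067. Ppargc1a, the coactivator that responds to exercise in skeletal muscle, had 26.4, 30.6 and 34.1 CPM in sedentary and 26.5, 33.7 and 41.7 CPM in trained rats, with overlapping ranges and 0.12 (interval -0.062 to 0.30). Tfam, which packages mitochondrial DNA, had -0.0039 (interval -0.13 to 0.12). Polrmt, the mitochondrial RNA polymerase (0.21, SE 0.068), Mfn2, a fusion protein (0.14, SE 0.062), and Ppara, a fatty acid sensor (0.17, SE 0.075), were at an unadjusted p under 0.05. Perm1 had 0.15 and Mfn1 had 0.079, with intervals that included 0.

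Nuclear genes of the respiratory chain, 75 tested and 0 called, had 50 members above 0 and a median of 0.022. That median fell below 0 without LV_Sed rat 20, the library with liver RNA, and also without LV_ExT rat 25, to -0.0071 at the lowest. Atp5f1d (0.15, SE 0.062) was the member at an unadjusted p under 0.05, and the abundant Atp5f1b, Atp5f1a and Uqcrc1 had 0.061, 0.037 and 0.074. Of 72 mitochondrial ribosomal protein genes, 0 were called, 55 lay above 0 and the median was 0.032. Mrps34 (0.20, SE 0.059), Mrpl38 (0.12) and Mrps2 (0.18) were at an unadjusted p under 0.05, while the most counted members Mrpl12, Mrps36 and Mrpl3 had 0.096, 0.00051 and 0.059.

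The 13 mRNAs of the mitochondrial genome had a median of 0.17, and 0 were called. This value was set by few rats: without rats 19, 20 and 26 it was -0.0077. Mt-co1 had 37365, 40923 and 46289 CPM in sedentary and 34643, 45196 and 52202 CPM in trained rats, a log2 fold change of 0.11 (interval -0.058 to 0.29). Mt-co3 and Mt-co2 had 0.14 and 0.10. All counts of the mitochondrial genome together, most of them ribosomal RNA, were 43.8% ± 2.83 (SD, n = 7) of counts in trained and 45.6% ± 2.65 in sedentary rats, with an exact two-sided permutation p of 0.231 and an adjusted p of 0.296 over 5 shares.

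Matrix genes lay below 0 with wide spread between rats. Collagens and their partners are made mainly by fibroblasts. Of 38 collagen genes, 0 were called, 25 lay below 0 and the median was -0.089. Of 44 genes of other matrix proteins, proteases and fibrosis, 0 were called, 33 lay below 0 and the median was -0.079. At an unadjusted p under 0.05 there were 0 genes in either list in either direction.

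Col3a1 had 1313, 1776 and 2129 CPM in sedentary and 925, 1465 and 2304 CPM in trained rats, and the trained group held both the lowest and the highest rat. Its log2 fold change was -0.24 (interval -0.59 to 0.11). Col1a2, Col1a1 and Col4a1 had -0.11, -0.16 and -0.035, and the last was above 0 in 3 other settings. Sparc, Dcn and Fbn1 had -0.067, -0.049 and -0.27, all with intervals that included 0.

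The matrix values depended on single trained rats. LV_ExT rat 14 had the highest average level of both lists among all 14 rats. Without it the medians were -0.22 for collagens and -0.22 for the other matrix genes, and 10 of 38 and 3 of 44 members had an unadjusted p under 0.05, where 8.05% of all genes did. Without LV_ExT rat 26 the median of the other matrix genes was -0.19. In rats 17 to 32 alone the medians were -0.27 and -0.31, and with any 1 rat left out they lay between -0.22 and -0.047 for collagens and between -0.22 and -0.042 for the others. Summed fibroblast markers, which share Col1a1, Col1a2, Col3a1, Dcn and Lum with these lists, had medians of 3590 CPM in sedentary and 3010 CPM in trained rats. They ranged from 2690 to 4250 CPM and from 2330 to 4680 CPM, and LV_ExT rat 14 was highest here too. The part of fibroblast content in these values was not tested.

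Proliferation genes had the lowest median of all 32 lists. In the adult heart these transcripts come from few dividing cells, and their levels were low. Of 40 cell cycle and DNA replication genes tested, 0 were called and 35 lay below 0, with a median of -0.19. At an unadjusted p under 0.05, 6 were lower and 0 higher, where 2.49% of all genes were lower and 3.41% higher. The median was between -0.24 and -0.15 under all other settings, at -0.20 in rats 17 to 32 alone and -0.21 without rats 19, 20 and 26. The average level of the list overlapped between groups. LV_ExT rat 18 was the highest of all 14 rats, and LV_Sed rats 16 and 32 lay below LV_ExT rats 26 and 27.

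Top2a, which untangles replicated DNA, had 7.08, 9.19 and 11.2 CPM in sedentary and 4.06, 6.64 and 10.3 CPM in trained rats. The groups overlapped, and the log2 fold change was -0.41 (SE 0.18, interval -0.79 to -0.019). Ccnb2, a mitotic cyclin, had 0.702, 1.31 and 1.75 CPM against 0.394, 0.875 and 1.18 CPM, a log2 fold change of -0.71 (SE 0.25). Cdk1, its kinase, Cdc20, which ends mitosis, and the replication helicase subunits Mcm7 and Mcm2 had -0.50, -0.36, -0.17 and -0.16.

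Mki67, the common marker of dividing cells, had -0.36 with an interval from -0.72 to 0.0099. The D cyclins, which act earlier and are also expressed in cells that do not divide, were on both sides of 0: Ccnd2 had 0.12, Ccnd3 0.042 and Ccnd1 -0.17, all with intervals that included 0. Macrophage and monocyte markers, a cell type that can divide in the heart, summed to 96.2 to 205 CPM in sedentary (median 185) and 114 to 182 CPM in trained rats (median 158). Their part in the proliferation values was not tested.

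**Figure D4:**
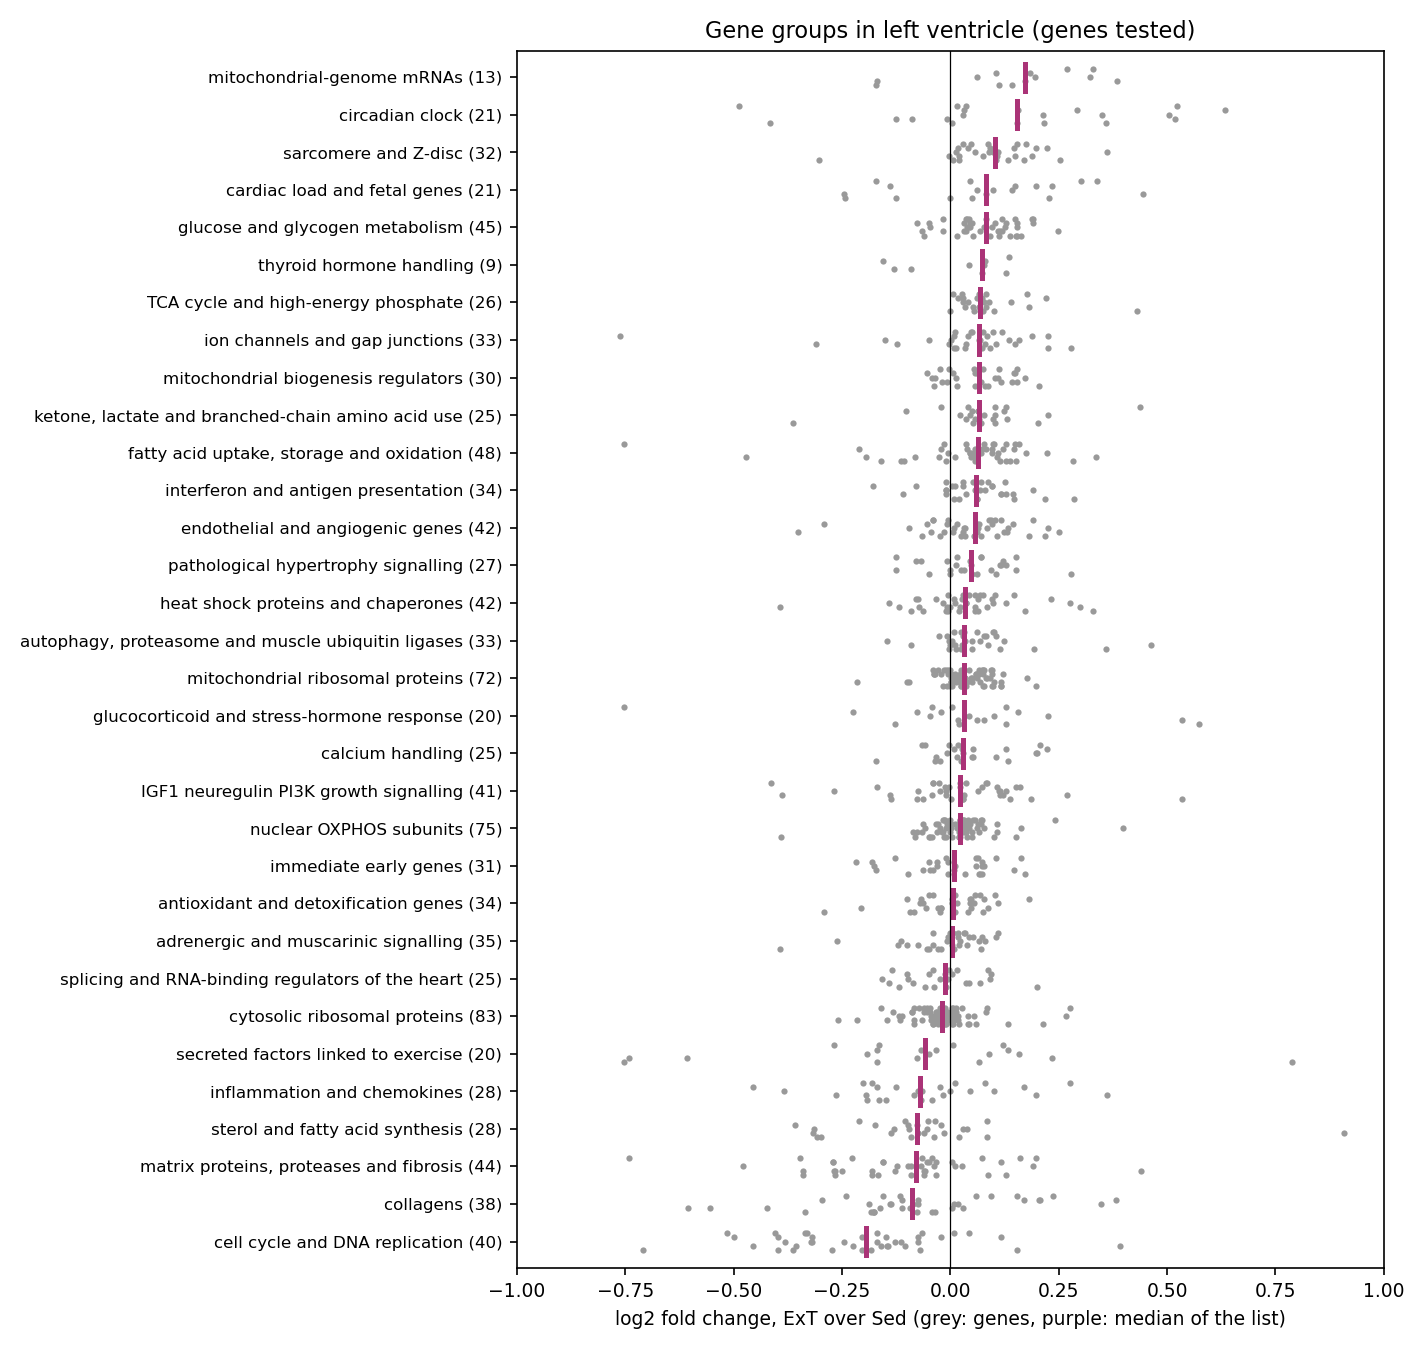
Log2 fold change of trained over sedentary rats for each gene of the 32 lists (grey points, number tested in brackets) with the list's median in purple, ordered by median; 6 points beyond 1 log2 unit are outside the plot. The medians run from -0.19 for cell cycle genes to 0.17 for mitochondrial-genome mRNAs, and no gene of any list was called.

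Vessel genes had small positive values. Of 42 endothelial and angiogenic genes, 0 were called, 30 lay above 0 and the median was 0.058. At an unadjusted p under 0.05 were Epas1, an oxygen-sensing factor (0.25, SE 0.10), and Dll4 and Notch4, the ligand and receptor of arterial Notch signalling (0.23, SE 0.10, and 0.22, SE 0.090). Epas1 had 78.6, 87.5 and 114 CPM in sedentary and 85.3, 109 and 132 CPM in trained rats, with overlap. Vegfa had 0.13 (interval -0.046 to 0.31), Pecam1 0.033 and Nrp1 0.0086. The summed endothelial markers had medians of 785 CPM in sedentary and 831 CPM in trained rats.

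Clock genes varied strongly between rats, in part along a run of rat numbers. The clock is a loop in which Arntl and Clock drive their own repressors over the day, so single time points depend on the hour of sampling, which the labels do not give. Of 21 clock genes, 0 were called, 16 lay above 0 and the median was 0.15. Usp2, Tef and Bhlhe41 were higher at an unadjusted p under 0.05. The clock gene Per2 was 24.0 to 27.8 CPM in LV_ExT rats 25 to 28 and 31.3 CPM in LV_Sed rat 29. In the other rats it was at most 17.7 CPM. Rats 25 to 28 are all trained, so training and the hour of sampling cannot be told apart in these values.

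Tef, an output factor of the clock, had 38.0, 42.2 and 88.1 CPM in sedentary and 51.5, 67.7 and 96.8 CPM in trained rats. LV_Sed rat 29 alone carried the high end of the sedentary group, and it also had the lowest sum of red blood cell markers, 43.4 CPM against at least 225 CPM in the other 13 rats. The log2 fold change was 0.52 (SE 0.20) and 0.72 without that rat. LV_ExT rats 25 to 28 had 67.7 to 96.8 CPM of Tef, and the other trained rats had 51.5 to 64.05 CPM. Arntl ran the other way, with 21.8, 41.5 and 46.3 CPM in sedentary and 19.5, 25.5 and 41.5 CPM in trained rats, and -0.42 (interval -0.84 to 0.0059). Rat 29 was the lowest sedentary rat, at 21.8 CPM, and the ranges of the groups overlapped. Nr1d1, which represses Arntl, ran from 2.20 to 14.6 CPM in sedentary and from 2.17 to 21.2 CPM in trained rats, a log2 fold change of 0.015 with an interval from -1.29 to 1.32. Among trained rats it was 2.17 to 4.06 CPM in rats 25 to 28, 8.82 CPM in rat 14, and 21.2 and 21.1 CPM in rats 17 and 18. The value near 0 thus averages low and high trained rats. Clock had -0.13 and the kinase Csnk1d -0.0079, with intervals that included 0.

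Fkbp5, a target of the glucocorticoid receptor, was also high in LV_ExT rats 25 to 28 (14.6 to 18.1 CPM) and in LV_Sed rat 29. LV_ExT rat 14 had 14.7 CPM, and the other rats had at most 13.3 CPM. Fkbp5 had 7.93, 9.25 and 16.2 CPM in sedentary and 9.13, 14.7 and 18.1 CPM in trained rats, and the highest sedentary rat was again rat 29. Its log2 fold change was 0.57 (SE 0.17), at an unadjusted p of 0.00552. The glucocorticoid list with Fkbp5 in it, 20 tested and 0 called, had 13 members above 0 and a median of 0.032. Ddit4, a stress-induced inhibitor of mTOR, had 0.53 (interval -0.045 to 1.12), and Klf15, a regulator of amino acid and lipid use, had 0.23 (interval -0.024 to 0.48). Other members were nearer 0, with 0.020 for the receptor Nr3c1, 0.13 for Pik3r1 and -0.047 for Txnip. Immediate early genes, which respond within an hour of a stimulus, had 16 of 31 members above 0, 0 called and a median of 0.0086. Fos had -0.17 (interval -1.15 to 0.81), Jun 0.15, Klf6 -0.030 and Jund -0.047.

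Sterol and fatty acid synthesis genes lay mostly below 0. Of 28 tested, 0 were called and 22 lay below 0, with a median of -0.076, which was between -0.11 and -0.031 under the other settings. Msmo1 was the member at an unadjusted p under 0.05. Its neighbours in cholesterol synthesis, Hmgcs1 and Sqle, had -0.14 (interval -0.28 to 0.0028) and -0.31 (interval -0.64 to 0.013). The most counted members, Fdft1, Insig1 and Scd2, had 0.085, -0.035 and -0.098, so the direction was not shared by all.

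The remaining lists had medians between -0.071 and 0.060. Cytosolic ribosomal proteins, 83 rows for 80 symbols with many pseudogenes elsewhere in the genome, had 0 called and a median of -0.019, with Rplp0, Rpsa and Rpl4 at 0.043, 0.020 and 0.0041. Antioxidant genes (34 tested, 0 called) had a median of 0.0072, with Nfe2l2 at 0.087 and Gpx7 at -0.29 among those at an unadjusted p under 0.05, and Sod2, Prdx3 and Gpx1 at 0.10, 0.057 and -0.041. Autophagy and ubiquitin genes (33 tested, 0 called) had 26 members above 0 and a median of 0.032, with Usp2 (0.36), Trim54 (0.12) and the lysosomal membrane protein Lamp2 (-0.090, SE 0.037) at an unadjusted p under 0.05. Nedd4, Pink1 and Lamp1 had -0.0016, 0.069 and 0.0050.

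Splicing regulators (25 tested, 0 called) had a median of -0.012, with Rbm38 (0.20, SE 0.063) and Srsf5 (-0.14, SE 0.064) at an unadjusted p under 0.05. Rbm20, the splicing factor of titin, had 0.088 (interval -0.066 to 0.24), Rbm39 -0.099 and Mbnl1 -0.0025. Interferon and antigen presentation genes (34 tested, 0 called) had 27 members above 0 and a median of 0.060, with Ciita (0.28) at an unadjusted p under 0.05 and B2m, Cd74 and Ifi27 at 0.062, 0.095 and 0.052. Inflammation genes (28 tested, 0 called) had 20 members below 0 and a median of -0.071. Complement C3 had the lowest value of all lists, -3.76, but was 201 CPM in LV_Sed rat 20 and gave -0.12 without it. Nfkb1 and Il1r1 had -0.00067 and -0.074. Secreted factors linked to exercise (20 tested, 0 called) had a median of -0.058, with 0 members at an unadjusted p under 0.05 in either direction.

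Counts were also compared by gene class. The share of nuclear-encoded counts on long non-coding RNA genes was 0.881% ± 0.0209 (SD, n = 7) in trained and 0.916% ± 0.0193 in sedentary rats. The ranges, 0.851 to 0.900% and 0.886 to 0.940%, overlapped, and the difference of -0.0344 percentage points had an exact two-sided permutation p of 0.00932 and an adjusted p of 0.0466 over 5 shares. Of 682 such genes tested, 371 lay below 0 and 0 were called in edgeR, with 15 lower and 15 higher at an unadjusted p under 0.05. The 10 genes with the largest falls accounted for 28% of the difference. Against all counts instead of nuclear-encoded ones, the difference was -0.00207 percentage points with an exact permutation p of 0.865. The shares of protein-coding, pseudogene and ribozyme counts had adjusted p-values between 0.223 and 0.5.

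Small nucleolar RNAs (snoRNAs), most of which are known to guide the chemical modification of ribosomal and spliceosomal RNA, lay below 0 throughout. Of 22 tested, 0 were called, 22 lay below 0 and the median log2 fold change was -0.42. There were 7 lower and 0 higher at an unadjusted p under 0.05, where 2.49% of all genes were lower. The class was taken up after its values were seen, and its counts are uncertain because members have near-identical copies and many lie inside other genes.

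Scarna10, a small RNA of the Cajal body, had 71.6, 82.9 and 90.7 CPM in sedentary and 63.8, 72.3 and 81.8 CPM in trained rats. The groups overlapped, and its log2 fold change was -0.19 (SE 0.065). Summed over the 22 genes, the level was 174, 214 and 255 CPM in sedentary and 136, 174 and 209 CPM in trained rats, again with overlap. The median lay between -0.50 and -0.30 under the 26 other settings, and the number at an unadjusted p under 0.05 between 3 and 10. It was 3 without LV_Sed rat 32, LV_ExT rat 14 or LV_ExT rat 17, and 10 without LV_Sed rat 16, LV_ExT rat 18 or LV_ExT rat 27. In the gastrocnemius of the same rats, 17 of the 22 were tested, 0 were called, 17 lay below 0 and the median was -0.51.

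The ventricle was set beside a leg muscle, the gastrocnemius (SM, its inner red portion), of the same 14 rats. Its libraries were made with another kit from less RNA, so a difference between tissues includes the library method. In the muscle, edgeR called 1 of 13543 genes (0.00738%), Tcte1, whose value was 1.32 (log2 fold change, SE 0.17) at an adjusted p of 0.00216. In the ventricle Tcte1 was 0.508 CPM on average and had -0.17 (interval -0.95 to 0.61). At an unadjusted p under 0.05 there were 937 genes (6.92%) in the muscle.

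A direct test of the difference in training effect between ventricle and muscle called 0 of 15049 genes (0%) in edgeR, with 687 (4.57%) at an unadjusted p under 0.05. With the rat as a block it also called 0, with a smallest adjusted p of 0.0918, for Apob, a liver gene of LV_Sed rat 20. DESeq2 called 3 genes, the liver genes Ambp and Fabp1 and ENSRNOG00000070316, a gene without a symbol.

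For some of the leading ventricle genes the muscle values are given as a description, since the genes were chosen on the ventricle. They do not stand for the leading genes that are not named here. Hspb6 had 0.33 (SE 0.077) in ventricle and 0.18 (SE 0.13) in muscle, whereas Bag3 had 0.30 (SE 0.076) and -0.013 (SE 0.13). Ube2o had 0.24 and 0.18, and Msmo1 had -0.30 and -0.27. Fkbp5 and Tef are not among the leading genes and were named after their values were seen. Fkbp5 had 0.57 (SE 0.17) in ventricle and 0.78 (SE 0.29) in muscle, and Tef had 0.52 (SE 0.20) and 0.33 (SE 0.082). None of these muscle values passed the adjusted test. Both tissues come from the same rats, so for Fkbp5 and Tef training and the hour of sampling cannot be told apart.

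**Figure D5:**
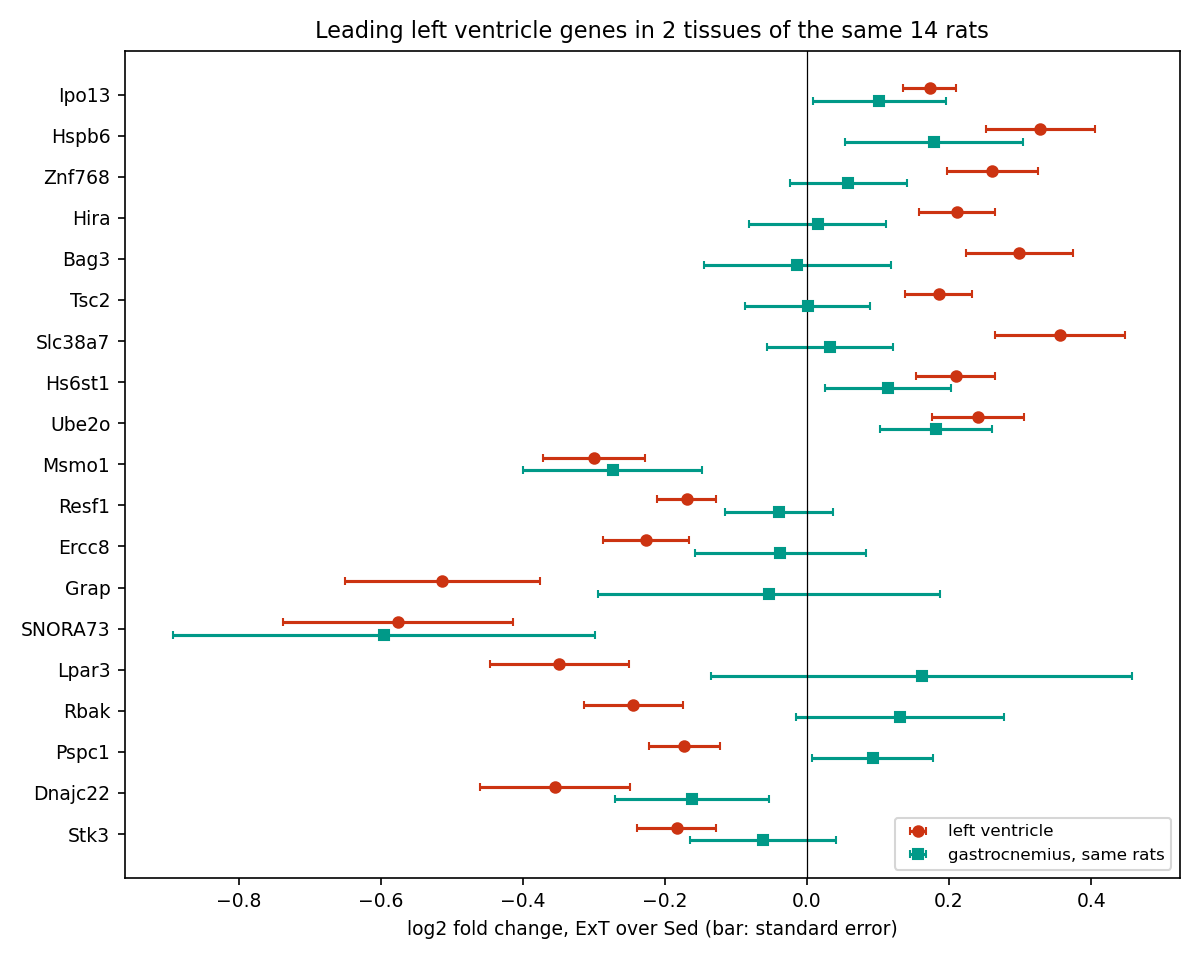
Log2 fold change of trained over sedentary rats with its standard error for 19 of the 20 leading ventricle genes in left ventricle (circles) and in gastrocnemius (squares) of the same 14 rats. Slc9a3 is left out because it did not pass the filter on low counts in muscle. Hspb6, Ube2o and Msmo1 lie on the same side of 0 in both tissues, and Bag3 lies at -0.013 in muscle.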

How the data were processed

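Counts are whole numbers per gene that the authors deposited in 1 table per tissue, with 30560 genes. Per the submitters' processing notes, cutadapt 4.6, STAR 2.7.11a, HTSeq, FastQC 0.74 and build mRatBN7.2 were used. The strand setting and annotation version are not given in the sources used here, so copies of near-identical genes and overlapping genes are uncertain. Per the labels' protocols, 100 ng of ventricle RNA went into a stranded Ribo-Zero library. Groups come from the sample titles. The third table, of another preparation, was not used here. The floor of 3 counts covers counting error only.

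ExT was tested against Sed with edgeR 4.0.16 (R 4.3.3): quasi-likelihood F test, TMM scaling, filterByExpr, robust dispersion, Benjamini-Hochberg adjustment over all genes, calls at 0.05. Intervals are log2 fold change ± the t quantile times SE. DESeq2 1.42.0, limma 3.58.1, other scalings and filters, and single rats left out were alternatives. Shares were compared with exact permutation tests (scipy 1.17.1) and the scripts were tested on simulated data. No 2 libraries of a group agreed within sampling noise (smallest chi-square per degree of freedom 15.2).

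The comparison, the 32 gene lists and the marker lists were chosen with earlier results of these data known. Genes named are the 10 with the smallest p in each direction among genes that carry a symbol and average 1 CPM or more, and the 3 most counted members of each list. Further genes were named after their values were seen. A few genes that these rules name are not reported here. Rat numbers pair ventricle with muscle from the same animal; deviations of the same rat correlated across 13011 genes with a median of 0.0419 (-0.176 to 0.245), and 5 of 14 rats correlated best with themselves. The labels call each library a separate rat.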

Additional observations from a re-analysis of the deposited data

Results flagged for a closer look

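Of 434 groups of 7 rats examined (named genes, marker sums and shares in each group), 33 had 1 rat whose gap to the next exceeded Dixon's critical value of 0.568 of the group's range. Chance flags about 1 in 20 groups, and the genes are not independent. No explanation was tested.

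In LV_Sed rat 20 the liver marker sum was 1810 CPM (others 1.11 to 61.0, highest in LV_Sed rat 16). Complement C3 was 201 CPM (0.718 to 8.72) and angiotensinogen Agt 10.4 CPM (0.159 to 0.678) in rat 20, while Slc25a20 (111 CPM) and Mrps36 (61.8 CPM) were lowest. LV_ExT rat 17 had a smaller liver sum, 43.0 CPM (others 1.27 to 8.24), with C3 at 8.11 CPM, and was highest for Ryr2 (4500 CPM), Rbm20 (215 CPM) and the protein-coding share of nuclear-encoded counts (98.6%). The atrial sum, which includes Nppa, was 1950 CPM in LV_ExT rat 26 and 629 CPM in LV_Sed rat 19. Rat 19 was also highest for Nppa itself (322 CPM), Cited4 (22.2 CPM) and Btaf1 (37.8 CPM).

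LV_Sed rat 29 was highest for the clock genes Tef (88.1 CPM, others 38.0 to 49.3) and Bhlhe41 (8.61 CPM, others 5.10 to 6.16) and for Fkbp5 (16.2 CPM, others 7.93 to 10.4), and lowest for Clock (65.4 CPM) and Hmgcs1 (25.7 CPM). LV_Sed rat 16 was highest for the glucose-regulated Txnip (494 CPM, others 176 to 293) and for Klf9 (56.2 CPM). LV_ExT rat 14 was highest for Fos (6.21 CPM, others 0.600 to 2.44) and the skeletal muscle sum (3.30 CPM) and lowest for Oxct1 (1010 CPM). LV_ExT rat 25 was highest for Rplp0 (438 CPM), Mrps34 (18.4 CPM) and Mettl17 (7.59 CPM).

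Single values remained in 4 rats. Tsc2 was 33.8 CPM in LV_Sed rat 30, and Csnk1d was 37.7 CPM in LV_Sed rat 31, each the lowest of its group. LV_Sed rat 32 was lowest for Ankrd1 (974 CPM) and highest for the lymphatic endothelial sum (102 CPM). Ccnd1 was highest in LV_ExT rat 18 (38.8 CPM).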

How the results depend on the processing

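Every alternative left the ventricle comparison with 0 called genes: RLE, upper-quartile or total-count scaling, no filter or a mean of at least 1 CPM, removal of mitochondrial-genome genes, the 12 rats numbered 17 to 32, the rat range as a covariate, DESeq2, limma-voom, and each rat left out in turn (smallest adjusted p between 0.512 and 0.999). The count at an unadjusted p under 0.05, 855 with all rats, was 1410 without the filter, 1715 in rats 17 to 32, 493 without rats 19, 20 and 26, and between 552 (without LV_Sed rat 30) and 1312 (without LV_Sed rat 16) with 1 rat left out. The cause was not tested. The 20 leading genes kept their direction in all 26 settings, with smallest adjusted p-values down to 0.0571 for Slc9a3 in DESeq2. Because these genes were picked for small p in the same rats, the kept direction follows largely from the choice and is not support for it. The lncRNA share had a difference of -0.00207 percentage points against all counts, a denominator that includes mitochondrial-genome counts. With the replicate block (rat) the difference between ventricle and muscle gave 0 calls, as without it, and DESeq2 gave 3. No paired analysis was possible within the ventricle because no rat gave a library to both groups. The medians of 7 lists changed sign in at least 1 setting: adrenergic, immediate early, antioxidant, respiratory chain, cytosolic ribosomal, interferon and mitochondrial-genome mRNAs. Intervals were widest for genes under 1 CPM, of which 17.6% had one inside 1.5-fold.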
